A study of Mus musculus with 12 samples.

Results

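The 240 genes described here are the mouse zinc finger protein genes whose symbol is Zfp followed by a number and whose raw count was at least 50 in each of 12 RNA-seq libraries of regulatory T cells (Tregs). They were selected on these raw counts, and are 240 of the 337 such symbols in the deposited table of 24421 rows. The libraries fall into 4 groups of 3: effector Tregs without CD25 (KO eTreg), effector Tregs with CD25 (WT eTreg), central Tregs without CD25 (KO cTreg) and central Tregs with CD25 (WT cTreg). CD25, encoded by Il2ra, is the alpha chain of the high-affinity interleukin-2 receptor. All mice carried R26tomato+/+, a reporter, and Foxp3eGFPERT2+/+, which ties GFP and a tamoxifen-responsive fusion to the Treg gene Foxp3, so that deletion was confined by design to Tregs. All received tamoxifen at 2 mg/kg into the peritoneum for 5 days, with harvest 10 days later. Spleens and lymph nodes of 2 to 3 mice were pooled for each library, and cells were sorted as CD62Lhi for cTregs and CD62Llo for eTregs, with KO cells gated as CD25lo. In the genotype field, libraries titled KO carry CD25WT/WT and libraries titled WT carry CD25FL/FL, against their titles and cell types, and the groups here go by title.

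C2H2 zinc finger proteins read DNA, and in some cases RNA, through small zinc-binding domains in which a pair of cysteines and a pair of histidines hold the metal. In the largest mammalian subfamily the fingers are joined to a KRAB domain, which recruits the corepressor Trim28 (KAP1) and through it the histone methyltransferase Setdb1, and many such proteins silence retroelements or guard imprinted regions. Other members act as transcriptional activators, RNA-binding proteins or ubiquitin ligases, and several take part in T cell development.

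The members were sorted by the longest coding sequence of the matching GENCODE gene (GRCm38, the build known as mm10). A KRAB A box with at least 17 of 33 residues identical to the vertebrate consensus was found in 128 members, called the KRAB class here. The other 112 had no clear KRAB box, and 11 of them had 10 to 16 identities. The median number of C2H2 fingers was 12 in the KRAB class and 7 in the other members. Zfp36, Zfp330, Zfp365, Zfp703, Zfp839, Zfp935 and the transcribed pseudogene Zfp783 had no canonical C2H2 match. The members passed on their lowest count and on nothing else: Zfp273, Zfp442, Zfp458 and Zfp773 lie just inside with a lowest count of 50, and Zfp516 (47), Zfp202 and Zfp772 (44 each) and Zfp248 (43) lie just outside. A minimum in every library leaves out genes that are low in 1 group, and 51 further Zfp symbols were tested without being members.

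The classes differ in base composition, which the results below turn on, so stretches that encode 1 finger and the linker after it are shown for 2 members that were higher and 2 that were lower in WT eTregs than in WT cTregs. They are the furthest in each direction, among called members with several fingers and under 20% of shared 50-base words, that hold a finger of the regular spacing followed by the common linker within 1 exon; members that moved further without such a stretch are not shown. The capitals mark the codons of the 2 cysteines and 2 histidines. Zfp760 at chr17:21722473-21722550 (mm10, plus strand) and Zfp40 at chr17:23176274-23176351 (minus strand) are of the KRAB class, and Zfp865 at chr7:5030071-5030148 (plus strand) and Zfp787 at chr7:6132888-6132965 (minus strand) have no clear KRAB box. All 4 lie in coding exons.
Zfp760: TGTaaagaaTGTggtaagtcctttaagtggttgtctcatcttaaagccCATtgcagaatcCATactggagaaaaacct
Zfp40: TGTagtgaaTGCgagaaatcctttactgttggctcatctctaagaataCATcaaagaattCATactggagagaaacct
Zfp865: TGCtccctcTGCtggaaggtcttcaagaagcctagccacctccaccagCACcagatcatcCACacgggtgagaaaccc
Zfp787: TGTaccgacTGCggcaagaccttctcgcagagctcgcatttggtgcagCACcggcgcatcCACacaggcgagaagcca
The same protein motif is written with GC contents of 38.5% in Zfp760 and 37.2% in Zfp40, and of 57.7% in Zfp865 and 61.5% in Zfp787. At the last base of each codon over the whole coding sequence, GC was 37.5% in Zfp760 and 30.9% in Zfp40, beside 72.2% in Zfp865 and 71.9% in Zfp787. Over the classes, median coding GC was 43% in the KRAB class and 54.3% in the other members. Median GC of the 3′ UTR was 38.7% in the KRAB class and 44.9% in the others.

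Library totals were 14567313 to 19121577 counts, and 12461 genes were tested. Il2ra, the targeted gene, had 124.8, 115.8 and 131.5 CPM (counts scaled to library size, with TMM factors) in KO eTregs, against 464.2, 561.4 and 541.6 CPM in WT eTregs. It had 122.1, 111.8 and 112.5 CPM in KO cTregs, against 576.1, 522.8 and 579.6 CPM in WT cTregs. Both differences have the direction the titles give. KO cells were sorted as CD25lo, so these values cannot settle the conflict between the titles and the genotype field. Summed markers of B cells, CD8 T cells, myeloid cells and NK cells stayed at or below 39 CPM in every library, and Klre1 was at 0 in all of them, while the 7 Treg markers summed to 4550 to 4740 CPM in KO eTregs, 4560 to 4760 in WT eTregs, 3040 to 3100 in KO cTregs and 3140 to 3200 in WT cTregs. The 4 central markers summed to 953 to 1030 CPM in KO eTregs, 855 to 988 in WT eTregs, 2470 to 2600 in KO cTregs and 2370 to 2520 in WT cTregs, which follows the sort. Libraries also differed by subset in the share of counts on the ribosomal RNA precursor gene Rn45s: 3.19% to 3.32% in KO eTregs, 4.11% to 4.34% in WT eTregs, 18.1% to 18.5% in KO cTregs and 22.4% to 24.4% in WT cTregs. The count-weighted mean GC content of transcripts was 48.6% ± 0.0608 in KO eTregs, 48.7% ± 0.0551 in WT eTregs, 50.5% ± 0.0981 in KO cTregs and 50.5% ± 0.107 in WT cTregs (SD, n = 3 each).

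The 240 members were more abundant in eTregs than in cTregs, and with loss of CD25 their sums overlapped between genotypes in each subset. They summed to 12640 ± 314 CPM in KO eTregs, 12260 ± 240 in WT eTregs, 9689 ± 325 in KO cTregs and 9903 ± 286 in WT cTregs (SD, n = 3 each). The 3 eTreg libraries of each genotype lay above its 3 cTreg libraries. The KRAB class carried most of the difference: 5186 ± 145 CPM in KO eTregs and 5032 ± 161 in WT eTregs, against 3118 ± 143 in KO cTregs and 3230 ± 140 in WT cTregs. The other members summed to 7458 ± 198 in KO eTregs and 7232 ± 103 in WT eTregs, against 6571 ± 205 in KO cTregs and 6674 ± 154 in WT cTregs. These are sums over bulk samples, in which more RNA per cell and more cells that express a gene cannot be told apart.

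**Figure D1:**
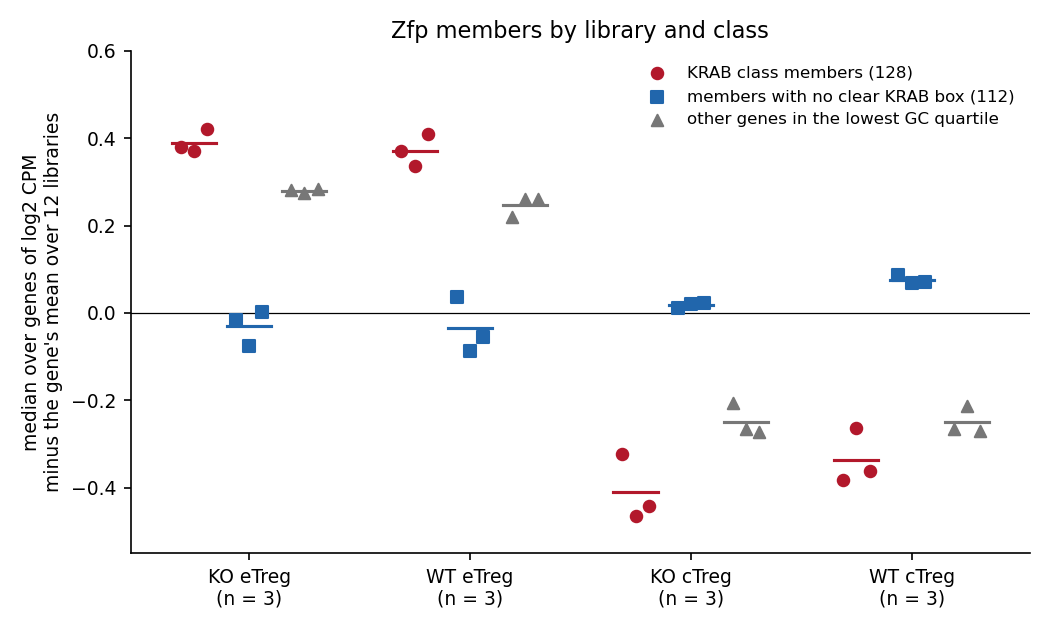
The median over genes of log2 CPM minus each gene's mean over the 12 libraries is plotted for the KRAB class, the members with no clear KRAB box and, for scale, other tested genes in the lowest quartile of transcript GC content; each point is 1 library and each line a mean of 3. The KRAB class lies between 0.34 and 0.42 in the 6 eTreg libraries and between -0.46 and -0.26 in the 6 cTreg libraries, the other members lie between -0.09 and 0.09, and the low-GC genes that are not Zfp genes move with the KRAB class.

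Which genes separate effector from central Tregs was asked first. In KO cells 155 members were higher and 55 lower in eTregs than in cTregs, with a median log2 fold change of 0.48. In WT cells 140 members were higher and 56 lower, with a median of 0.40. Each call is edgeR's quasi-likelihood test at a Benjamini-Hochberg adjusted p under 0.05 over all tested genes, of which 36.1% were higher and 35.8% lower in KO cells, and 35.7% higher and 35.8% lower in WT cells. Of the members 64.6% were higher in KO cells and 58.3% in WT cells. The median over all tested genes was 0.00 in both comparisons.

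Most of the rises were in the KRAB class. Of its 128 genes, 111 were higher and 8 lower in KO eTregs than in KO cTregs (median 0.82), and 102 were higher and 7 lower in WT eTregs than in WT cTregs (median 0.72). Of the 112 members with no clear KRAB box, 44 were higher and 47 lower in KO cells (median -0.06), and 38 were higher and 49 lower in WT cells (median -0.08). The fold changes in KO and WT cells, which share no library, had a Spearman correlation of 0.971 over the 240 members, 226 of which had the same sign. Of the members called in both genotypes, 137 were higher in both, 50 lower in both and none opposite. This agreement was computed over the members only. Without the same values over all tested genes it is not shown to be particular to them. The 6 KRAB class genes that were lower in both were Zfp7, Zfp688, Zfp689, Zfp707, Zfp747 and Zfp954, whose transcripts have GC contents from 50.1% to 59%. Of the 51 tested Zfp symbols with a lower count than the rule asks, 35 were higher and 5 lower in KO cells (median 1.21). In WT cells 30 were higher and 7 lower (median 0.91). Each of these had a count under 50 in at least 1 library, so genes low in 1 group gather among them. Their counts and medians are therefore no separate check on the members.

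The largest rises, Zfp758 in KO cells and Zfp760 in WT cells, were in KRAB class genes of chromosome 17. Zfp760 (chr17:21707741-21725636, 16 fingers) had 28.45, 27.56 and 34.84 CPM in KO eTregs, against 9.04, 10.48 and 8.44 CPM in KO cTregs, and 30.38, 27.2 and 34.16 CPM in WT eTregs, against 7.78, 9.44 and 8.99 CPM in WT cTregs. All 6 eTreg libraries lay above all 6 cTreg libraries. It rose by 1.70 ± 0.12 (SE) on the log2 scale in KO cells (adjusted p = 2.36e-09) and 1.80 ± 0.12 in WT cells (adjusted p = 1.38e-09). Zfp758 (chr17:22361453-22377281, 12 fingers) had 44.83, 43.41 and 47.91 CPM in KO eTregs, against 13.7, 9.87 and 10.55 CPM in KO cTregs, and 43.58, 42.32 and 43.54 CPM in WT eTregs, against 15.07, 15.49 and 12.29 CPM in WT cTregs. The groups did not overlap, and the rise was 2.00 ± 0.10 in KO cells and 1.59 ± 0.10 in WT cells. Zfp40, Zfp677, Zfp442, Zfp458 and Zfp935 rose by 1.53 to 1.76 on the log2 scale in KO and WT cells. Of these, Zfp442 shares 32.3% of its 50-base words with other genes, mostly Zfp937, and Zfp935 shares all of its own, nearly all with Gm49359, so reads of these genes could be split between copies and their values are uncertain.

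The largest falls were in members with no clear KRAB box and GC-rich transcripts. Zfp628 (chr7:4915217-4922002, 16 fingers) had 16.44, 15.48 and 16.56 CPM in KO eTregs, against 42.66, 45.7 and 43.18 CPM in KO cTregs, and 15.74, 16.59 and 17.08 CPM in WT eTregs, against 45.77, 43.45 and 48.85 CPM in WT cTregs. The groups were far apart, and the log2 fold change was -1.44 ± 0.07 in KO cells (adjusted p = 3.46e-11) and -1.48 ± 0.07 in WT cells (adjusted p = 1.96e-11). Zfp593, whose human counterpart is a nucleolar protein of ribosome assembly, fell by 0.98 in KO cells and by 1.34 in WT cells. Zfp865, Zfp524, Zfp414 and Zfp574 fell by 1.08 to 1.11 in KO cells and by 0.96 to 1.14 in WT cells. Zfp524 shares 46% and Zfp414 25% of their 50-base words with other gene models. Zfp608 fell by 1.03 in WT cells and is described with the loss of CD25.

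**Figure D2:**
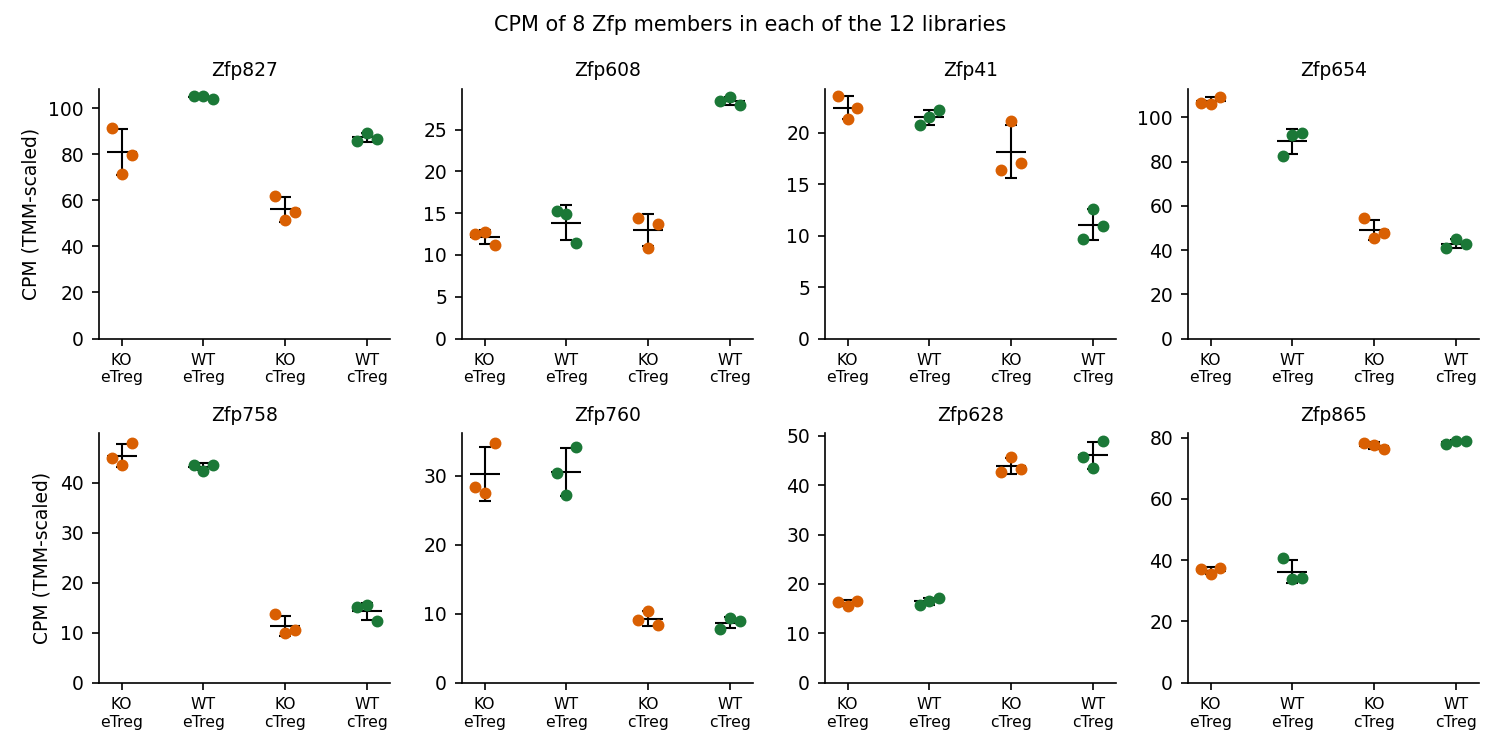
TMM-scaled CPM of 8 members is plotted for each library (points), with the mean and SD of 3 libraries per group, KO in orange and WT in green. Zfp758 and Zfp760 are high and Zfp628 and Zfp865 low in the 6 eTreg libraries, while Zfp827 is lower in KO than in WT cells of both subsets and Zfp608 stands high in the 3 WT cTreg libraries.

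The difference between subsets followed the GC content of the transcript more closely than its length. Over the 240 members the Spearman correlation of the log2 fold change with GC content was -0.908 in KO cells and -0.882 in WT cells, and with transcript length 0.08 in KO cells and 0.07 in WT cells. Over 12037 other tested genes it was -0.607 in KO cells and -0.563 in WT cells for GC, and 0.214 in KO cells and 0.205 in WT cells for length. With length it was 0.04 in KO cells and 0.01 in WT cells within the KRAB class, and 0.253 in KO cells and 0.231 in WT cells within the members with no clear KRAB box. These correlations are descriptions: the genes share the same libraries, and counts per gene carry the composition of each library. The members had a median GC content of 45.5%, with 41.4% in the KRAB class and 51.7% in the others, beside 50.4% in the other tested genes. Their median length was 3411.5 bases, beside 2830 bases in the other tested genes. The number of fingers had a Spearman correlation with the log2 fold change of 0.396 in KO cells and 0.379 in WT cells over all members. It was 0.259 in KO cells and 0.223 in WT cells within the KRAB class, and -0.02 in KO cells and 0.00 in WT cells within the other members.

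Quartiles of GC content were cut on all tested genes with a value, at 45.55%, 50.29% and 55.04%. The lowest quartile holds 121 members, of which 119 were higher and none lower in eTregs in KO cells (median 0.91), and 113 were higher and none lower in WT cells (median 0.80). Of other tested genes in that quartile, 74.6% were higher in KO cells (median 0.53) and 71.2% in WT cells (median 0.48). In the same quartile the 92 KRAB class members had medians of 0.98 in KO cells and 0.87 in WT cells, and the 29 members with no clear KRAB box had medians of 0.63 in KO cells and 0.53 in WT cells. The highest quartile holds 37 members, of which 33 were lower and 2 higher in KO cells (median -0.70), and 30 were lower and none higher in WT cells (median -0.76). Of other tested genes there, 71.8% were lower in KO cells (median -0.66) and 70.8% in WT cells (median -0.62). In quartiles of length the KRAB class stayed positive throughout, with medians in WT cells between 0.52 and 0.78.

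A fit with an offset in each library, drawn from spline curves of count on the length and GC content of transcripts, left a smaller shift of the members. The curves were fitted to these same libraries. They take out any difference that follows GC content or length, whatever its origin, and that origin was not tested. With it 86 members were higher and 40 lower in KO cells (median 0.11), where 24.4% of all tested genes were higher and 33.5% lower, and 74 were higher and 60 lower in WT cells (median 0.06), where 24.8% were higher and 34% lower. The median of all tested genes was then -0.06 in KO cells and -0.07 in WT cells. The KRAB class kept more calls upward, with 60 higher and 12 lower in KO cells (median 0.20) and 52 higher and 14 lower in WT cells (median 0.16). The Malat1 level was higher in eTregs, as the KRAB class was. It was 18150 ± 1490 CPM in KO eTregs, 16180 ± 988 in WT eTregs, 9574 ± 1150 in KO cTregs and 10580 ± 709 in WT cTregs. The share of counts on Rn45s and the count-weighted GC content were lower in eTregs than in cTregs. The part of Malat1, Rn45s and GC content in the members' difference was not tested.

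**Figure D3:**
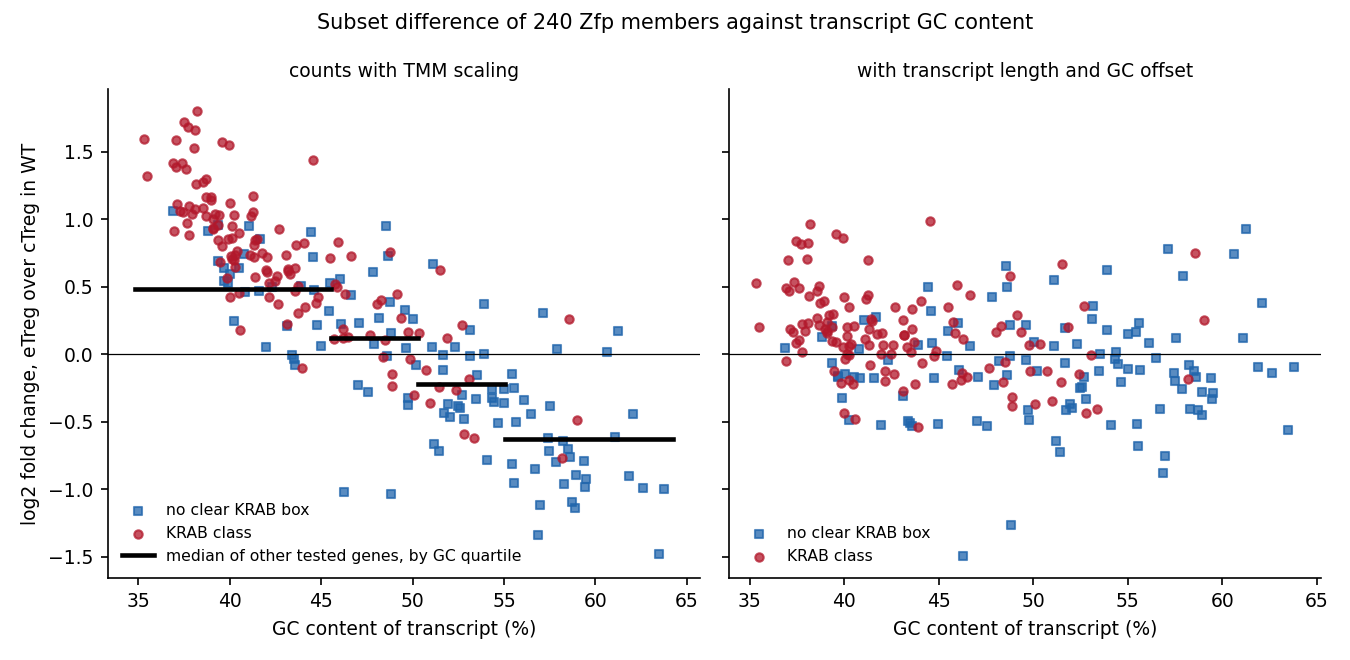
The log2 fold change of eTregs over cTregs in WT cells is plotted against the GC content of the transcript for the 240 members, without (left) and with (right) the length and GC offset; black lines give the medians of the other tested genes in each GC quartile. On the left the members run from above 1.5 at low GC to below -1 at high GC, with the KRAB class at the low-GC end. They slope the same way as the black lines but more steeply. In the lowest quartile their median is 0.804 and the line stands at 0.483. In the highest quartile their median is -0.76 and the line stands at -0.625. On the right medians are 0.16 for the KRAB class and -0.12 for the others. The offset was fitted on GC content in these same libraries, so a loss of slope on the right is set by the fit.

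Some members stood away from the GC trend, named here after their values were seen. Zfp652, whose human counterpart binds the corepressor CBFA2T3, has a transcript of 46.3% GC and fell all the same: it had 32.2, 28.4 and 31.41 CPM in KO eTregs, against 60.88, 49.84 and 61.83 CPM in KO cTregs, and 38.67, 34.8 and 37.44 CPM in WT eTregs, against 71.43, 74.36 and 78.65 CPM in WT cTregs. Its log2 fold change was -0.91 ± 0.08 in KO cells and -1.02 ± 0.08 in WT cells, and with the offset -1.37 in KO cells and -1.49 in WT cells, the lowest of all members in both. In the other direction Zfp870, a KRAB class gene of chromosome 17 with 44.5% GC, had 33.7, 29.55 and 35.01 CPM in KO eTregs, against 9.93, 12.92 and 8.9 CPM in KO cTregs, and 36.25, 31.35 and 35.91 CPM in WT eTregs, against 12.35, 13.62 and 11.98 CPM in WT cTregs. It rose by 1.62 ± 0.12 in KO cells and 1.44 ± 0.12 in WT cells, and by 1.16 in KO cells and 0.99 in WT cells with the offset. Zfp523, a relative of Zfp143, has 61.2% GC and was not among the falls, with 0.34 ± 0.12 in KO cells (adjusted p = 0.0141) and 0.17 ± 0.12 in WT cells (adjusted p = 0.196). With the offset it stood at 1.16 in KO cells and 0.93 in WT cells.

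Several groups of neighbouring members moved in 1 direction. Members were joined into a neighbourhood where the gap to the next was at most 500000 bases, and 12 neighbourhoods held at least 5. All 16 members at chr13:67038596-67827002, each of the KRAB class, were higher in eTregs in KO cells (median 1.15) and in WT cells (median 1.02). At chr17:21008903-23564238, 13 of 14 were higher and 1 lower in both genotypes, with medians of 1.48 in KO cells and 1.35 in WT cells, the exception being Zfp213 at the GC-rich end of the group. At chr17:32765496-33631779, 9 of 10 were higher and 1, Zfp414, lower. None of the 9 members at chr6:47835661-48623227 reaches the KRAB class, though some have partial matches (16 identities in Zfp777, 15 in Zfp282, 14 in Zfp212 and 13 in Zfp398), and 7 of them were lower in both genotypes, with medians of -0.27 in KO cells and -0.35 in WT cells. All 5 members at chr7:4915217-5038446, which include Zfp628, Zfp524 and Zfp865, were lower, with medians of -1.08 in KO cells and -1.12 in WT cells. At chr7:127233061-127885996, where 4 of 7 members are of the KRAB class, none was higher. There 6 were lower in KO cells (median -0.56) and 5 in WT cells (median -0.59). The median GC content of these neighbourhoods was 38.8%, 38.1%, 40.2%, 55.4%, 58.9% and 53.4% in the order given. Of all tested genes 36.1% were higher and 35.8% lower in KO cells, and 35.7% and 35.8% in WT cells. Neighbours can share sequence and are not independent of each other.

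**Figure D4:**
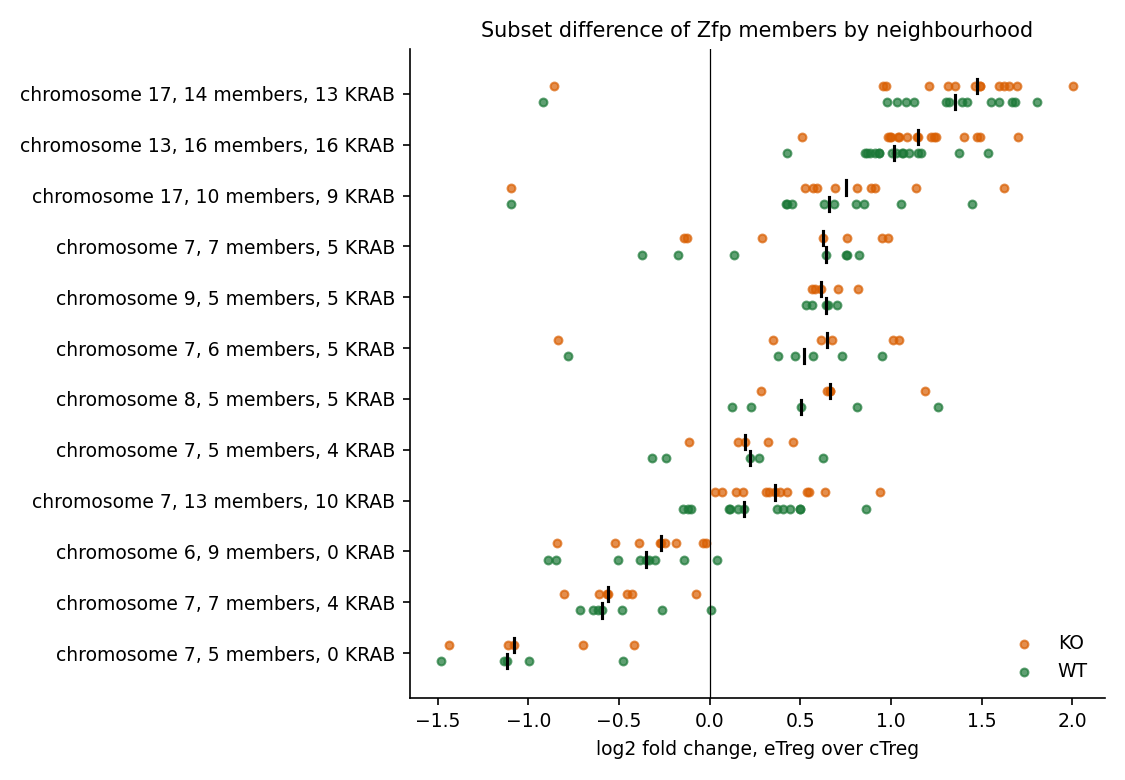
The log2 fold change of eTregs over cTregs is plotted for the members of each of 12 neighbourhoods, with KO cells in orange above WT cells in green and black bars for medians, from the highest median at the top to the lowest at the bottom. The medians of the chromosome 13 group and of the higher chromosome 17 group lie above 1. The medians of the chromosome 6 group and of the chromosome 7 group with no member of the KRAB class lie below 0. So do those of the chromosome 7 group with 4 KRAB class genes among 7 members.

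Loss of CD25 had smaller effects on the members, and in cTregs more of them fell than rose. In KO cTregs 9 members were higher and 27 lower than in WT cTregs, with a median log2 fold change of -0.06, where 14.8% of all tested genes were higher and 12.6% lower. The members' shares were 3.75% higher and 11.2% lower, so the share that rose lay under that of all genes and the share that fell near it. Among the KRAB class 3 were higher and 9 lower, and among the other members 6 were higher and 18 lower. The median over all tested genes was 0.00. The 4 effector markers also moved with genotype here, at 1070 to 1320 CPM in KO eTregs, 877 to 991 in WT eTregs, 582 to 624 in KO cTregs and at most 254 in WT cTregs, and their part in the members' differences was not tested. The count of falls was 16 without KO cTreg library 3 and 17 without WT cTreg library 2. The Spearman correlation of the log2 fold change with GC content was 0.08 over the members.

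The largest fall was that of Zfp608 (chr18:54888048-54992555), described in mice as a repressor of the Rag genes in thymocytes. It had 12.52, 12.81 and 11.24 CPM in KO eTregs, against 15.31, 14.94 and 11.42 CPM in WT eTregs, and 14.44, 10.85 and 13.71 CPM in KO cTregs, against 28.38, 28.97 and 27.96 CPM in WT cTregs. The 3 WT cTreg libraries stood above all 9 others. The log2 fold change of KO over WT was -0.19 ± 0.12 in eTregs (adjusted p = 0.436) and -1.13 ± 0.12 in cTregs (adjusted p = 3.29e-06). Between eTregs and cTregs its difference of -0.09 in KO cells did not pass the test (adjusted p = 0.538), and in WT cells it was lower in eTregs by 1.03 (adjusted p = 5.57e-07).

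Zfp827 (chr8:79028437-79193766), whose human counterpart recruits the NuRD complex to telomeres, fell in both subsets. It had 91.28, 71.33 and 79.7 CPM in KO eTregs, against 105.2, 105.3 and 104.1 CPM in WT eTregs, and 61.85, 51.36 and 54.78 CPM in KO cTregs, against 85.78, 89.28 and 86.71 CPM in WT cTregs. KO libraries lay below WT libraries in each subset. Its log2 fold change of KO over WT was -0.38 ± 0.08 in eTregs (adjusted p = 0.00629) and -0.64 ± 0.08 in cTregs (adjusted p = 1.83e-05). Zfp28, Zfp566, Zfp937 and the pseudogene Zfp783 fell by 0.48 to 0.61 in KO cTregs. Zfp937 shares 29.4% of its 50-base words with other genes, Zfp442 first among them, and is uncertain. Zfp593, Zfp652 and Zfp326, a link between RNA polymerase II and splicing, also fell in KO cTregs, by 0.38 to 0.48. Zfp316 fell by 0.57, a call lost without KO cTreg library 1 or 3 or WT cTreg library 1 or 2 (adjusted p from 0.0841 to 0.194), and that of Zfp566 was lost without WT cTreg library 2 (adjusted p = 0.0607).

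Zfp41 (chr15:75616679-75629827) rose most in KO cTregs. It had 23.54, 21.36 and 22.38 CPM in KO eTregs, against 20.76, 21.53 and 22.17 CPM in WT eTregs, and 16.37, 21.08 and 17.01 CPM in KO cTregs, against 9.7, 12.61 and 10.91 CPM in WT cTregs. The genotypes overlapped in eTregs and did not in cTregs. The log2 fold change of KO over WT was 0.06 ± 0.10 in eTregs (adjusted p = 0.814) and 0.71 ± 0.11 in cTregs (adjusted p = 0.000179). Zfp839 rose by 0.62 ± 0.14 (adjusted p = 0.00354), and the KRAB class genes Zfp53 and Zfp169 by 0.32 and 0.30. Zfp703, a partner of Groucho corepressors, rose by 0.30 ± 0.10 (adjusted p = 0.0337). Zfp831 rose by 0.22 ± 0.07 (adjusted p = 0.0206), with 362.1, 321.6 and 347.5 CPM in KO cTregs, against 280.1, 318.3 and 287.2 CPM in WT cTregs. The call of Zfp703 was lost without KO cTreg library 1 or 2 or WT cTreg library 2 or 3 (adjusted p from 0.0573 to 0.153), and that of Zfp831 without library 1 or 3 of either cTreg group (adjusted p from 0.0657 to 0.0811).

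In eTregs loss of CD25 changed few members. In KO eTregs 3 members were higher (Zfp654, Zfp746, Zfp91) and 3 lower (Zfp827, Zfp607, Zfp706) than in WT eTregs, with a median log2 fold change of 0.02, where 3.25% of all tested genes were higher and 3.4% lower. The members' shares were 1.25% in each direction, below those of all genes. Libraries with the same replicate number deviated together in eTregs, and in a fit of the 6 eTreg libraries alone with that number as a block 12 members were higher and 5 lower, where 7.54% of tested genes were higher and 6.48% lower. Leaving out 1 library gave 0 to 5 members higher and 1 to 4 lower: none was higher without KO eTreg library 3 and 1 without WT eTreg library 2, 5 were higher without WT cTreg library 1, and 1 was lower without KO eTreg library 1, KO eTreg library 3 or WT eTreg library 2.

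Zfp654 (chr16:64780347-64851652) had 106.4, 105.9 and 109.4 CPM in KO eTregs, against 82.55, 92.01 and 92.97 CPM in WT eTregs, and the groups did not overlap. It rose by 0.27 ± 0.06 in eTregs (adjusted p = 0.0185) and by 0.20 ± 0.07 in cTregs (adjusted p = 0.0475). Zfp91, a ubiquitin ligase of noncanonical NF-kB signalling, had 257.8, 259.4 and 250.9 CPM in KO eTregs, against 236.9, 227.6 and 222.2 CPM in WT eTregs. It rose by 0.16 ± 0.04 in eTregs (adjusted p = 0.031) and by 0.21 ± 0.04 in cTregs (adjusted p = 0.00224), and the eTreg call was lost with the offset (adjusted p = 0.0577) and without any of KO eTreg libraries 1, 2 and 3 and WT eTreg libraries 2 and 3 (adjusted p from 0.0666 to 0.14). Zfp746 (PARIS), a repressor of Ppargc1a and a parkin substrate, rose by 0.22 ± 0.06 in eTregs (adjusted p = 0.0287), a call lost without each of the same 5 libraries (adjusted p from 0.0584 to 0.14). Zfp706, described in mouse embryonic stem cells as a repressor of Klf4, fell by 0.22 ± 0.05 in eTregs (adjusted p = 0.0146) and by 0.33 ± 0.05 in cTregs (adjusted p = 0.000201). Zfp607, a KRAB class gene, fell by 0.24 ± 0.06 in eTregs (adjusted p = 0.031) and by 0.21 ± 0.07 in cTregs (adjusted p = 0.0267). In eTregs the call of Zfp654 was lost without KO eTreg library 3 or WT eTreg library 1, that of Zfp706 without KO eTreg library 1 or 3 or WT eTreg library 2, and that of Zfp607 without those 3 or WT eTreg library 3 (adjusted p from 0.0521 to 0.15).

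**Figure D5:**
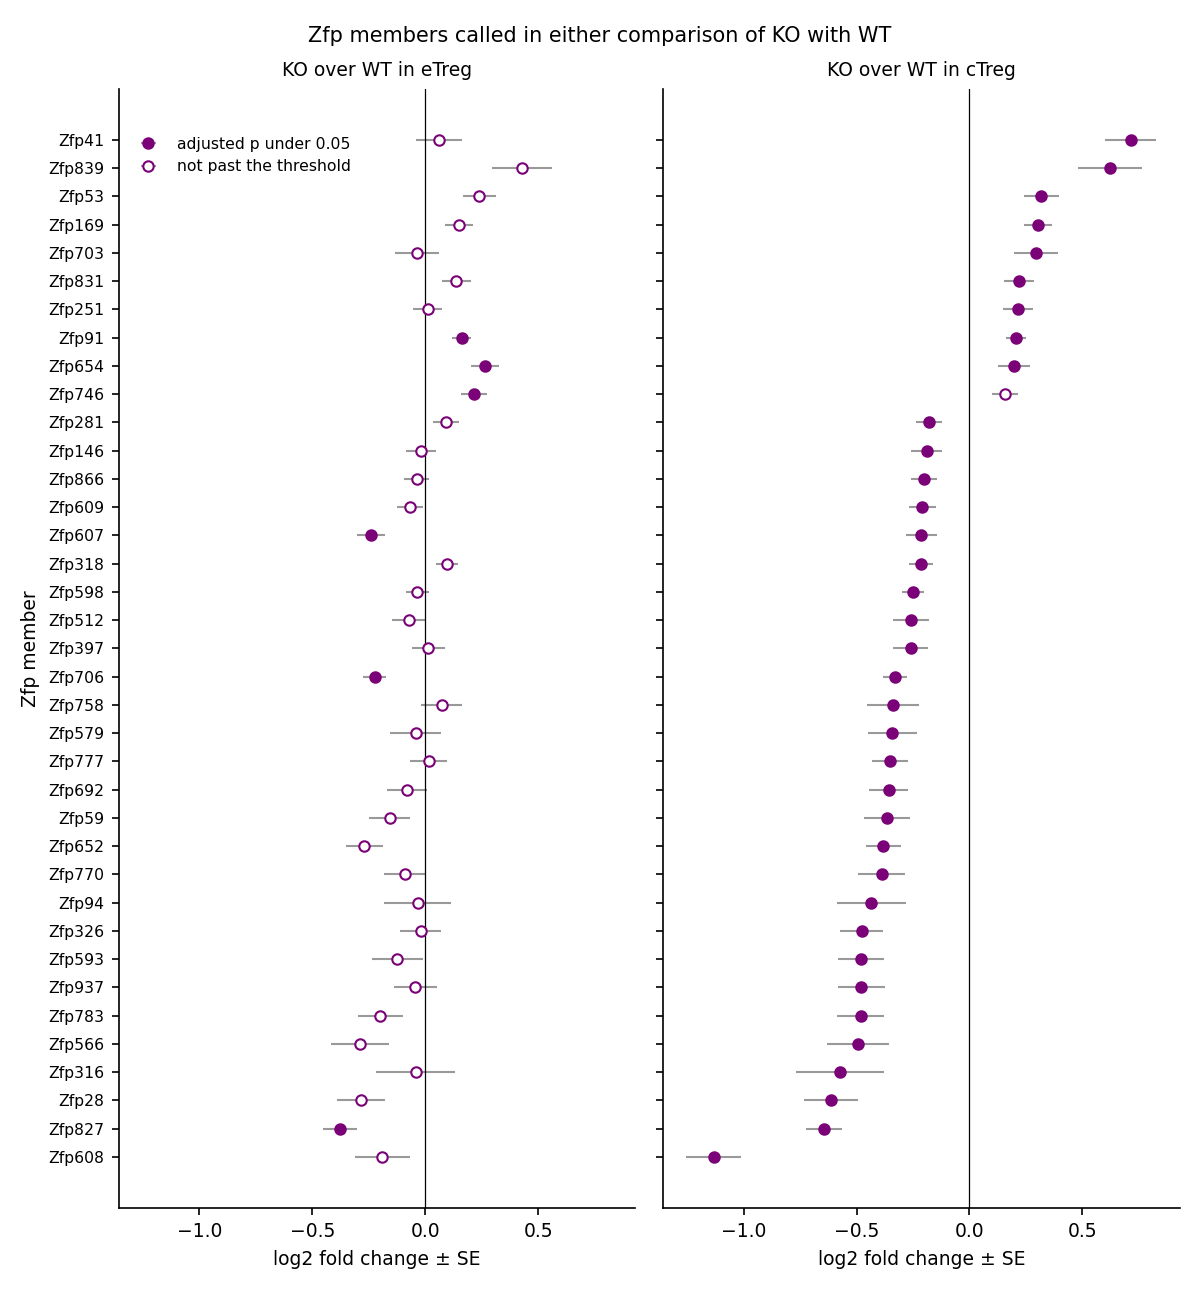
The log2 fold change of KO over WT with its SE is plotted for every member called in eTregs (left) or in cTregs (right), ordered by the value in cTregs, with filled points for adjusted p under 0.05. Zfp607, Zfp654, Zfp706, Zfp827 and Zfp91 are filled in both panels and have the same sign in both, and Zfp608 and Zfp41 are the lowest and highest in cTregs.

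The 5 members called in both subsets (Zfp607, Zfp654, Zfp706, Zfp827, Zfp91) are 83.3% of the 6 called in eTregs and 13.9% of the 36 called in cTregs. All 5 had the same sign in both, and the 2 comparisons share no library. The share called in both was not computed over all tested genes, so the overlap is not shown to be particular to the members. A call in cTregs and none in eTregs does not show that the effects differ, and the difference itself was tested as the KO effect in eTregs minus the KO effect in cTregs. That difference passed the threshold in 3 members, Zfp608 and Zfp318 above 0 and Zfp41 below 0, where 0.803% of all tested genes were above and 3% below. It was 0.94 ± 0.17 for Zfp608 (adjusted p = 0.00343), 0.31 ± 0.07 for Zfp318 (adjusted p = 0.0199) and -0.65 ± 0.15 for Zfp41 (adjusted p = 0.0212). Zfp318, which in B cells permits IgD expression, had 85.57, 83.56 and 81.59 CPM in KO eTregs, against 77.53, 76.52 and 80.53 CPM in WT eTregs. It had 66, 61.66 and 65.72 CPM in KO cTregs, against 77.28, 71.91 and 75.04 CPM in WT cTregs. KO libraries thus lay above WT libraries in eTregs and below them in cTregs. The Zfp318 difference missed the threshold without any 1 of 5 libraries (KO eTreg 1, WT eTreg 2, KO cTreg 2, WT cTreg 1, WT cTreg 3), with adjusted p from 0.0517 to 0.0654. The Zfp41 difference did so without any 1 of KO eTreg 3, WT eTreg 3, KO cTreg 2, WT cTreg 1 and WT cTreg 3, with adjusted p from 0.0537 to 0.0766.

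Members with roles in RNA and protein handling were called in both directions between the subsets, at shares near those of all tested genes (36.1% higher and 35.8% lower in KO cells, 35.7% and 35.8% in WT cells). Of 11 such members, 5 were higher and 4 lower in KO eTregs than in KO cTregs, and 4 were higher and 4 lower in WT eTregs than in WT cTregs. Zfp638, a nuclear RNA-binding protein, averaged 387.7 ± 24.7 CPM in KO eTregs, against 190.6 ± 15.8 in KO cTregs, and 367.6 ± 14.1 in WT eTregs, against 190.3 ± 24 in WT cTregs (SD, n = 3 each). Zfp207 (BuGZ), a spindle assembly protein, had the highest level per transcript length of all members, at 170.6 CPM per kb over the 12 libraries, and rose by 0.65 in KO cells and 0.61 in WT cells. The neighbouring levels per length were 160.7 CPM per kb for Zfp740 and 55.9 for Zfp869, and the lowest were 1.17 for Zfp846, 1.2 for Zfp316 and 1.61 for Zfp438.

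Zfp36 (tristetraprolin), which destabilises mRNAs with AU-rich elements, was lower in eTregs: 111.8 ± 7.58 CPM in KO eTregs, against 199.9 ± 22.8 in KO cTregs, and 99.1 ± 12.6 in WT eTregs, against 170.7 ± 21.7 in WT cTregs. Its difference was -0.84 ± 0.12 in KO cells (adjusted p = 4.65e-05) and -0.78 ± 0.12 in WT cells (adjusted p = 8.86e-05), and -0.58 in KO cells and -0.52 in WT cells with the offset. Zfp598, the ubiquitin ligase that senses collided ribosomes, fell by 0.76 in KO cells and 0.98 in WT cells, and Zfp622, a factor of large ribosomal subunit maturation, by 0.77 in KO cells and 0.67 in WT cells. With the offset Zfp622 kept -0.75 in KO cells and -0.64 in WT cells, while Zfp598 stood at -0.06 (adjusted p = 0.313) in KO cells and -0.33 in WT cells. With loss of CD25 the Zfp598 difference was -0.03 in eTregs (adjusted p = 0.784), and in KO cTregs it fell by 0.25 ± 0.05 (adjusted p = 0.000974). Zfp106 was 0.28 higher in KO cells and 0.24 higher in WT cells, a direction that turned with the offset (-0.12 in KO cells and -0.17 in WT cells).

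Among 15 DNA-binding regulators with described targets, 10 were higher and 5 lower in KO eTregs than in KO cTregs, and 8 were higher and 5 lower in WT eTregs than in WT cTregs. The lower share of 33.3% in each genotype was close to the 35.8% of all tested genes, and the higher share was 66.7% in KO cells and 53.3% in WT cells, against 36.1% and 35.7% of all tested genes. Zfp292 rose by 0.80 in KO cells and 0.64 in WT cells, Zfp148 (ZBP-89) by 0.63 in KO cells and 0.53 in WT cells, and Zfp644, a partner of the G9a and GLP methyltransferases, by 0.58 in KO cells and 0.47 in WT cells. All 3 turned negative with the offset in both genotypes, between -0.04 and -0.32. Of the others counted as higher, Zfp131, Zfp143, Zfp281 and Zfp407 also turned negative with the offset in both genotypes. Zfp318, counted as higher in KO cells, turned negative there (-0.19). The higher shares above are thus those without the offset. Zfp217, a partner of CoREST and Ctbp complexes, fell by 0.59 in KO cells and 0.43 in WT cells, and stood at -0.56 in KO cells and -0.41 in WT cells with the offset. Zfp335, needed for thymocyte maturation, fell by 0.76 in KO cells and 0.79 in WT cells, and stood at -0.09 (adjusted p = 0.213) in KO cells and -0.17 in WT cells with the offset. Zfp592 and Zfp687, which share a chromatin complex with Zmynd8, fell by 0.36 and 0.44 in KO cells and by 0.37 and 0.44 in WT cells. With the offset Zfp592 stood at -0.35 in KO cells and -0.37 in WT cells, while Zfp687 no longer passed, at 0.01 in KO cells and -0.03 in WT cells (adjusted p = 0.686). With CD25 loss none of the 15 passed in eTregs, and 3 fell in cTregs (Zfp281 by 0.18, Zfp318 by 0.21, Zfp609 by 0.21), a share of 20% beside 12.6% of all tested genes. The Zfp281 call was lost without KO cTreg library 2 or 3 or WT cTreg library 1 or 2 (adjusted p from 0.0678 to 0.12), and that of Zfp609 without KO cTreg library 3 (adjusted p = 0.067).

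Of 5 KRAB repressors with described retroelement or imprint targets, 4 were higher and none lower in eTregs in both genotypes. That share of 80% lay near the share of the whole KRAB class, 86.7% in KO cells and 79.7% in WT cells. Of all tested genes 36.1% were higher in KO cells and 35.7% in WT cells. Zfp445, which guards imprinted regions, averaged 274.9 ± 7.44 CPM in KO eTregs, against 164.8 ± 6.34 in KO cTregs, and 270.6 ± 7.15 in WT eTregs, against 178.7 ± 7.31 in WT cTregs (SD, n = 3 each). With the offset its rise of 0.74 in KO cells became 0.18 and its rise of 0.60 in WT cells became 0.05, which did not pass the test (adjusted p = 0.296). Zfp809, which silences murine leukaemia proviruses, rose by 0.50 in KO cells and 0.52 in WT cells, and by 0.22 in KO cells and 0.24 in WT cells with the offset. Zfp932 and Zfp708, repressors of endogenous retroviral sequences, rose by 1.5 and 1.24 in KO cells and by 1.28 and 1.10 in WT cells, but share 55.5% and all of their 50-base words with other gene models and are uncertain. With the offset Zfp708 no longer passed the test, at 0.27 in KO cells (adjusted p = 0.0968) and 0.22 in WT cells (adjusted p = 0.164). Zfp568, which represses the placental promoter of Igf2, had 0.03 in KO cells (adjusted p = 0.765) and -0.12 in WT cells (adjusted p = 0.221). None of the 5 passed the test for loss of CD25 in either subset. Of all tested genes 3.25% were higher and 3.4% lower in KO eTregs, and 14.8% higher and 12.6% lower in KO cTregs.

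Partners through which KRAB proteins act and other zinc finger genes were counted beside the members, against 36.1% higher and 35.8% lower of all tested genes in KO cells and 35.7% and 35.8% in WT cells. Of 20 corepressor and heterochromatin genes, 10 were higher and 7 lower in eTregs in KO cells (median 0.13) and likewise 10 and 7 in WT cells (median 0.14). Trim28 itself had 108.2, 105.9 and 106.6 CPM in KO eTregs, against 160.8, 171.5 and 170.8 CPM in KO cTregs, and 123.3, 114.8 and 114.7 CPM in WT eTregs, against 189.8, 177.7 and 194.4 CPM in WT cTregs. It was lower by 0.65 in KO cells and 0.67 in WT cells without the offset, and with it stood at 0.06 in KO cells and -0.01 in WT cells. Setdb1 had 0.07 (adjusted p = 0.199) in KO cells and -0.02 (adjusted p = 0.684) in WT cells. Zinc finger genes of other names gave mixed counts: 8 higher and 5 lower of 17 Zkscan and Zscan genes in both genotypes, and 15 higher and 12 lower in KO cells and 13 higher and 14 lower in WT cells of 37 Zbtb genes. Of 19 tested Zfp symbols with a letter after the number, 17 were higher and 1 lower in KO cells (median 0.98), and 16 higher and 1 lower in WT cells (median 0.81). Of 18 C2H2 factors known in T cells, such as Ikzf and Klf genes, 9 were higher and 6 lower in KO cells, and 6 higher and 7 lower in WT cells.

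Promoters of the members were read from RefSeq (GRCm38.p6), as windows of 300 bases around the start, for the 203 members that matched by symbol, with 244 windows. Since the interleukin-2 receptor signals through Stat5, the letters TTCNNNGAA, the palindrome Stat5 is known to bind, were searched on both strands. They were in 16.8% of the members' windows (20.61% in the KRAB class and 12.39% in the others), in 6.95% of the windows of tested genes and in 8.3% of all 32851 windows. Of the 40 members with a TTCNNNGAA match, none passed for KO against WT in eTregs, and 0 were higher and 2 lower in KO cTregs. Of the 163 with a window and no match, 2 were higher and 2 lower in KO eTregs, where 3.25% of all tested genes were higher and 3.4% lower, and 4 were higher and 20 lower in KO cTregs, where 14.8% were higher and 12.6% lower. A match is a run of letters and not a bound site.

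As examples, Zfp94, the member with 2 TTCNNNGAA matches among those that fell in KO cTregs, and Zfp458, a strong riser in eTregs with 1 match, are shown with the matches in capitals. They do not stand for the 40 members with a match, of which 2 were lower in KO cTregs. Zfp85 and Zfp953 also hold 2 matches, and no member of chromosome 13, where both lie, was called lower there. Zfp94 lies at chr7:24316617-24316916 and Zfp458 at chr13:67268945-67269244, both on the minus strand.
Zfp94: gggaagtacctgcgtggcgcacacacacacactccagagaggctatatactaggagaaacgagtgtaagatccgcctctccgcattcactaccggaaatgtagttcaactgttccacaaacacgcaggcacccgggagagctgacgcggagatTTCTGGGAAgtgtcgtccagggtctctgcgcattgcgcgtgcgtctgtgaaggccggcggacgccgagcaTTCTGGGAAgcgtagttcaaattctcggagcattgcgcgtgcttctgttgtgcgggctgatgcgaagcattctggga
Zfp458: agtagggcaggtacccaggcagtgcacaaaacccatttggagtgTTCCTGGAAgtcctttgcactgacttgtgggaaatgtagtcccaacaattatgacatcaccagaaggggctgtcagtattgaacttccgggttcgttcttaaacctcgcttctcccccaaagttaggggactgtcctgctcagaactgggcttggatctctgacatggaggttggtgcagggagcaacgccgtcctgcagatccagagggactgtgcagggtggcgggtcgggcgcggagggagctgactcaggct
Zfp94 had 5.33, 6.22 and 6.59 CPM in KO cTregs, against 6.97, 8.43 and 9.14 CPM in WT cTregs, a log2 fold change of -0.43 ± 0.15 (adjusted p = 0.045). Zfp458 had 3.78, 3.96 and 4.75 CPM in KO cTregs, against 4.01, 4.9 and 3.84 CPM in WT cTregs (-0.03, adjusted p = 0.911), and rose by 1.70 ± 0.14 in KO eTregs over KO cTregs and by 1.53 ± 0.15 in WT eTregs over WT cTregs.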

How the data were processed

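The deposited table holds raw counts per gene symbol, made by the authors in a way that the sources used here do not describe beyond HISAT2 2.2.1, Cell Ranger and the build mm10 in the submitters' processing notes; per the labels' protocols, total RNA was depleted of ribosomal RNA before library preparation. No counter, annotation or strand setting is named there, so reads of overlapping genes and close copies cannot be assigned here. Library totals ranged from 14567313 to 19121577 counts.

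The 12 libraries were fitted together in edgeR 4.0.16 (R 4.3.3) with filterByExpr, TMM scaling, 1 mean per group and robust quasi-likelihood F-tests, and p-values were adjusted by Benjamini-Hochberg over 12461 genes, with calls under 0.05. CPM use TMM-scaled library sizes, and standard errors are the absolute log2 fold change over the square root of F. Transcript length, GC content, position, coding sequence, finger number and KRAB box came from GENCODE vM21. The offset was a natural spline (5 degrees of freedom) on length and on GC content in each library. Members with at least 20% of 50-base words in other genes were treated as uncertain. Without these, and without members whose exons overlap another gene on the same strand, 202 are left. Named genes were the 6 largest rises and falls per comparison among called members whose groups did not overlap, the 3 largest differences of effect, the 3 highest and lowest levels per length, and the role lists; others are said to be chosen after their values were seen. The members and lists were chosen with earlier results of these data known.

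Alternatives were DESeq2 1.42.0, limma-voom (limma 3.58.1), other filters and scalings, a replicate block, the offset and leaving out each library. Replicate numbers come from the titles. Deviations of same-numbered KO and WT eTreg libraries from their group means correlated at 0.236, 0.308 and 0.147. The block in eTregs assumes that the numbers pair them, which the titles do not state. Replicates are pools of 2 to 3 mice each and differed beyond sampling noise. On simulated data with 100 genes changed 2-fold among 12317 genes for KO against WT cTregs, 91 were recovered, and with 100 changed 1.5-fold, 66. Of the calls in that simulation 7.1% were genes left unchanged, more than the 2.44% to 5.2% in the other comparisons.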

Additional observations from a re-analysis of the deposited data

Results flagged for a closer look

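In 3 members the effect of CD25 loss differed between the subsets by the interaction test in edgeR with Benjamini-Hochberg adjustment over all tested genes. Calls above 0 were 0.833% of the members and 0.803% of all tested genes. Calls below 0 were 0.417% of the members and 3% of all tested genes. For Zfp608 the KO effect in eTregs minus that in cTregs was 0.944 on the log2 scale (adjusted p = 0.00343), with an effect of -0.19 in eTregs and -1.13 in cTregs. For Zfp41 the difference was -0.652 (adjusted p = 0.0212), with 0.06 in eTregs and 0.71 in cTregs. For Zfp318 it was 0.31 (adjusted p = 0.0199), with 0.10 in eTregs and -0.21 in cTregs. The Zfp608 difference kept its call under every alternative run, and those of Zfp41 and Zfp318 were each lost when 1 of 5 libraries was left out.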

How the results depend on the processing

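Of 557 settings run on 25 summary results, 497 kept the result and 60 moved it. The length and GC offset gave, for eTregs over cTregs, 86 members higher in KO cells and 74 in WT cells, medians of 0.11 and 0.0556, 60 and 52 KRAB class genes higher, medians of 0.199 and 0.157 in that class, and 14 KRAB class genes lower in WT cells; with the replicate block added these were 85 and 71, 0.109 and 0.0554, 60 and 50, 0.2 and 0.16, and 15. Differences of effect above 0 then numbered 4 with the offset and 5 with the block added. Over every Zfp symbol tested the medians were 0.564 in KO cells and 0.465 in WT cells, and 5 were lower in KO eTregs; with at least 100 counts the medians were 0.388 in KO cells and 0.315 in WT cells. Scaling without Rn45s gave WT medians of 0.472 for the members and 0.799 for the KRAB class, 1 member higher in KO eTregs, and sums of 14630 CPM in KO eTregs, 14520 in WT eTregs, 10890 in KO cTregs and 11130 in WT cTregs. A KRAB box at 10 or more identities and the exclusion of members with shared sequence or overlapping exons were both chosen after seeing the data. The first gave 14 KRAB class genes lower in KO and 14 in WT cells, the second 5 in KO cells. In KO eTregs DESeq2 and limma-voom each gave 5 members higher, and the replicate block in 6 libraries 12 higher and 5 lower. In the other comparisons the deviations of same-numbered libraries correlated between -0.152 and 0.172. Whether such libraries were prepared together there is not known from the titles. Leaving out 1 library gave 5 to 8 KRAB class genes lower in KO cells, 16 to 32 members lower in KO cTregs, 0 to 5 higher and 1 to 4 lower in KO eTregs, and 1 to 5 differences of effect above and 0 to 1 below 0.

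With the offset, alone and with the block, the difference between eTregs and cTregs turned its sign in KO cells for Zfp106 (-0.116 in both), Zfp131 (-0.253, -0.255), Zfp143 (-0.102), Zfp148 (-0.255), Zfp281 (-0.0598, -0.0602), Zfp292 (-0.037, -0.0352), Zfp318 (-0.192), Zfp326 (-0.0884, -0.0921), Zfp346 (0.175), Zfp407 (-0.012), Zfp644 (-0.0941, -0.0935), Zfp687 (0.0101, 0.00885) and Zfp846 (-0.167, -0.168). In WT cells it did so for Zfp106 (-0.17, -0.169), Zfp131 (-0.164, -0.162), Zfp143 (-0.171), Zfp148 (-0.322), Zfp281 (-0.309, -0.307), Zfp292 (-0.169), Zfp346 (0.154), Zfp407 (-0.0473), Zfp644 (-0.177, -0.176) and Zfp846 (-0.2, -0.198). The cause was not tested. Members near the count minimum have the least depth.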
